A study of Mus musculus with 5 samples.

Results

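The 10 genes described here encode 5 receptor tyrosine kinases (Pdgfra, Pdgfrb, Kit, Flt1 and Kdr) and 5 ligands of the PDGF and KIT receptors (Pdgfa, Pdgfb, Pdgfc, Pdgfd and Kitl). They were taken by gene symbol from the annotation of a mouse microarray. All 10 had a named probe, with 1 probe each, among 19084 genes that had one. RNA of 5 samples, labelled with Cy5, was measured on a single-colour array each. The MEF group is 1 array of fibroblasts from mouse embryos of 13.5 days after mock-vector transduction. For iLC there are 2 arrays of such fibroblasts given Dmrt1, Gata4 and Nr5a1 by lentivirus, which the submitters label induced Leydig-like cells. A further 2 arrays, named Leydig, hold cells isolated from the testes of mice aged 56 days; Leydig cells lie between the seminiferous tubules and make androgens. The sources used here do not give the strain, the purity of the isolated cells or whether cells were pooled. Per the labels' protocols, transduced fibroblasts were exposed to virus for 12 hours and then kept in medium to which PDGFAA (10 ng/ml) and IGF (50 ng/ml) had been added. PDGFAA is the homodimer that Pdgfa encodes, and it binds the receptor that Pdgfra encodes. That text is repeated for each of the 5 samples, and it does not say whether the MEF cells received this medium.

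The receptors of this family sit in the cell membrane and form dimers when a ligand binds. The receptors of a dimer phosphorylate each other and pass the signal to PI3 kinase, phospholipase C gamma and the RAS-MAP kinase chain. PDGF receptor alpha is known as a mark of interstitial progenitors in the testis, and signalling through it by PDGF-A is needed for adult Leydig cells to form. PDGF receptor beta is known from pericytes and smooth muscle, KIT from germ cells, mast cells and adult Leydig cells, and the VEGF receptors FLT1 and KDR from endothelium.

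Values are probe intensities as deposited, and differences are between group means of log2(intensity + 16). A difference was called where limma's test, with a mean for each group estimated from the 5 arrays together, gave a Benjamini-Hochberg adjusted p under 0.05 over the 19084 genes. The single MEF array was assumed to vary as the paired arrays of the other groups do. The labels do not tell whether the arrays of a pair had separate cultures or animals as their source; p-values therefore measure only the spread between these arrays, which may be technical, and their small number limits the precision. In these bulk samples fewer cells of a type and less RNA per cell cannot be told apart. Array medians ran from 1111 to 1230. Over all genes the log2 values of the iLC pair correlated at 0.978 and those of the Leydig pair at 0.961, which describes the arrays and is no test. Of 12 measured Leydig markers, 5 were called higher on the Leydig arrays than on the MEF array and 0 lower. The defining Leydig genes Insl3 and Lhcgr had no named probe, and the Cyp11a1 probe read 907 or less on all 5 arrays. Between iLC and MEF, the steroid synthesis genes Hsd3b1 and Fdx1 were called higher. Both calls were lost with only these groups fitted and without any 1 of the iLC or Leydig arrays. Star read 695 in MEF, 56878 and 73892 for the iLC pair, and 1368 and 19703 for the Leydig pair. It was called neither between Leydig cells and MEF (adjusted p = 0.328) nor between iLC and MEF (adjusted p = 0.107). The probes of the delivered genes were not called higher there: the iLC pair read 333 and 427 for Dmrt1 (397 in MEF), 4127 and 3150 for Gata4 (6773 in MEF) and 1509 and 1158 for Nr5a1 (1265 in MEF). Their readings thus do not bear out the label, and it is not known whether these probes lie in the delivered sequences. In what follows iLC means the arrays so labelled, and every direction drawn from them rests on that label. A probe's intensity depends on its sequence, so no level is set against that of another gene.

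Most of these genes set the Leydig arrays apart from the fibroblast-derived ones. Pdgfra and Kit read far higher on the Leydig arrays than on any other array. Pdgfrb, Pdgfa, Pdgfb, Pdgfc, Kitl, Flt1 and Kdr read lower there than on any other array. Pdgfb, Kitl and Kdr read highest on the iLC arrays. Between iLC and Leydig cells 7 of 10 genes were called, 5 higher and 2 lower in iLC, where 11.4% of all genes were called (5.74% higher and 5.69% lower). Between Leydig cells and MEF 5 of 10 were called, 2 higher and 3 lower, where 7.38% of all genes were called (3.39% higher and 3.99% lower). Between iLC and MEF 0 of 10 were called by limma, where 0.571% of all genes were (0.283% higher and 0.288% lower), and 3 of the 10 (Pdgfrb, Pdgfb and Flt1) had an unadjusted p under 0.05. The groups did not overlap at 9 of the 10 genes between iLC and MEF (78.4% of all genes), at 9 between iLC and Leydig cells (58% of all genes) and at all 10 between Leydig cells and MEF (77.1% of all genes), so that with so few arrays a lack of overlap is common. These comparisons share arrays, so their counts are not independent. The median difference of the 10 genes was 1.31 between iLC and Leydig cells (-0.03 over all genes), -0.97 between Leydig cells and MEF (-0.10 over all genes) and -0.24 between iLC and MEF (-0.11 over all genes).

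**Figure D1:**
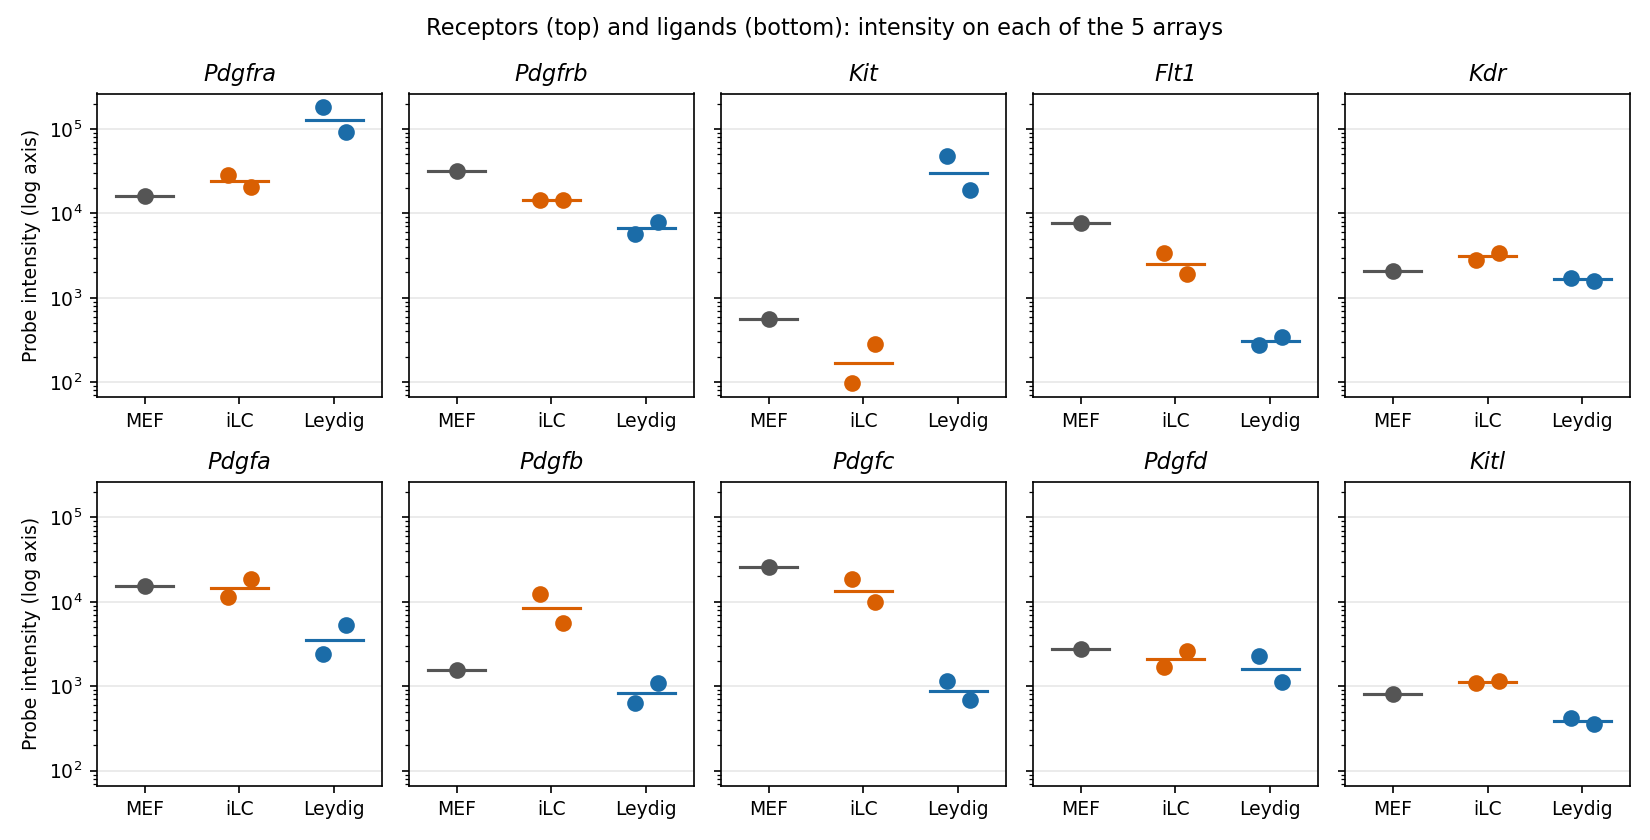
Probe intensity (log axis) of the 5 receptor genes in the top row and the 5 ligand genes in the bottom row, with 1 point per array and a bar at each group's mean of log2 values. The Leydig points of Pdgfra and Kit lie above all others. Those of Pdgfrb, Pdgfa, Pdgfb, Pdgfc, Kitl, Flt1 and Kdr lie below all others. The Pdgfb, Kitl and Kdr points are highest in iLC.

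**Figure D2:**
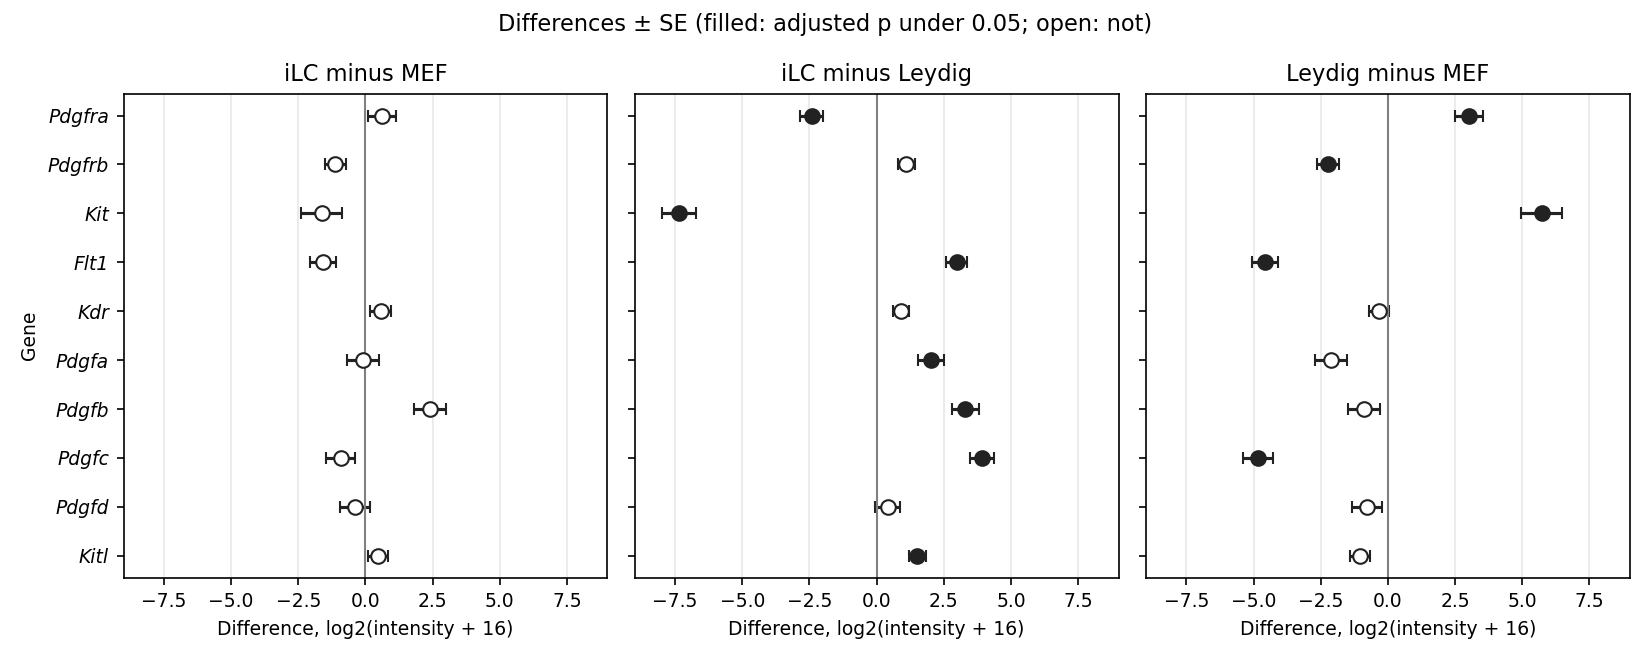
Differences between group means of log2(intensity + 16) with standard errors, for each gene in the 3 comparisons. Filled points, with an adjusted p under 0.05, number 0 between iLC and MEF, 7 between iLC and Leydig and 5 between Leydig and MEF.

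Pdgfra, the receptor that binds the PDGFAA of the medium, read 15980 in MEF, 28814 and 20535 for the iLC pair, and 180686 and 92654 for the Leydig pair. The groups did not overlap, and the iLC readings lay close to that of MEF. The difference between Leydig cells and MEF was 3.02 ± 0.52 (SE, adjusted p = 0.0234), an 8.09-fold change on this scale. Between iLC and Leydig cells it was -2.41 ± 0.43 (adjusted p = 0.0185). The difference between iLC and MEF, 0.61 ± 0.52, was not called (adjusted p = 0.64; 95% interval -0.67 to 1.88), so that these arrays allow anything from a small fall to a rise of 1.88. Pdgfrb, which encodes the receptor for PDGF-BB and PDGF-DD, ran the other way. It read 31446 in MEF, 14425 and 14453 for the iLC pair, and 5726 and 7850 for the Leydig pair. The 3 groups stood in steps without overlap. Its difference between Leydig cells and MEF was -2.23 ± 0.40 (adjusted p = 0.0253). The steps between iLC and MEF (-1.12, adjusted p = 0.258; 95% interval -2.09 to -0.16) and between iLC and Leydig cells (1.10, adjusted p = 0.0849; 0.32 to 1.89) were not called. With any 1 of the 4 iLC or Leydig arrays left out, Pdgfra lost its call between iLC and Leydig cells (-2.89 to -1.93, adjusted p from 0.0508 to 0.095) and Pdgfrb its call between Leydig cells and MEF (-2.45 to -2.00, adjusted p up to 0.0861). Pdgfra lost its call against MEF without Leydig replicate 1 (2.53, adjusted p = 0.0753) or 2 (3.50, adjusted p = 0.0665). Such a refit has 1 residual degree of freedom in place of 2.

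Kit, the receptor for stem cell factor, had the widest range of the 10 genes over the arrays, 8.72 on the log2 scale. It read 553 in MEF, 96.8 and 283 for the iLC pair, and 47570 and 18913 for the Leydig pair. The lower Leydig reading was far above all 3 fibroblast-derived readings. The difference between iLC and Leydig cells was -7.35 ± 0.63 (SE, adjusted p = 0.0019), and that between Leydig cells and MEF was 5.72 ± 0.77 (adjusted p = 0.011). On the iLC arrays the probe was dim, with 12.5% and 24.2% of all probes at or below its reading. How much of such a reading is background is not known, so the size of this difference is uncertain. The difference between iLC and MEF, -1.63 ± 0.77, was not called (adjusted p = 0.368; 95% interval -3.49 to 0.23). Kitl, which encodes stem cell factor, the ligand of KIT, had the opposite order. It read 807 in MEF, 1104 and 1150 for the iLC pair, and 415 and 353 for the Leydig pair. Both iLC readings were the highest and both Leydig readings the lowest. Kitl was called higher in iLC than in Leydig cells (1.52 ± 0.30, adjusted p = 0.0277), while its differences between Leydig cells and MEF (-1.05, adjusted p = 0.187; 95% interval -1.95 to -0.14) and between iLC and MEF (0.47, adjusted p = 0.603; -0.43 to 1.38) were not called. The Kit call between iLC and Leydig cells held without each of the 4 arrays in turn (-8.06 to -6.65, adjusted p from 0.012 to 0.0323). That between Leydig cells and MEF was lost without Leydig replicate 1 (5.06, adjusted p = 0.0613) or 2 (6.39, adjusted p = 0.0626), and the Kitl call without any 1 of the 4 (1.41 to 1.63, adjusted p up to 0.135).

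KIT is also known from spermatogonia and mast cells, so their markers were read beside it. Of 14 germ cell markers, 2 (Dazl and Zbtb16) were called higher on the Leydig arrays than on the MEF array and 0 lower, and between iLC and Leydig cells 2 were called higher and 5 lower. Their summed intensity was 56785 in MEF, 61361 and 66113 for the iLC pair, and 45198 and 758695 for the Leydig pair. The spermatid genes Odf1 (2692 and 356634) and Prm1 (6235 and 141591) separate the 2 Leydig arrays. Kit was higher on Leydig replicate 1, the array with the lower germ cell sum, but spermatid genes carry the sum of replicate 2. Outside the spermatid genes, Dazl (3150 and 2389), Ddx4, Stra8 and Sohlh1 were, like Kit, higher on replicate 1. Zbtb16, Sycp3 and Uchl1 were higher on replicate 2. The spermatogonial genes Stra8 (328 and 184) and Sohlh1 (419 and 173) were dim on the Leydig arrays, while Zbtb16 read 2333 and 3508 there. Of 8 mast cell markers, Hdc, which encodes histidine decarboxylase, was the 1 called higher against MEF, at 23704 and 6686 on the Leydig arrays against 161 on the MEF array. Fcer1a (74.9 and 63.9), Ms4a2 (128 and 87.4) and Cpa3 (559 and 415), which define mast cells, were dim on the Leydig arrays. The tryptase genes were not: Tpsb2 read 10466 in MEF and 10572 and 8648 for the Leydig pair, and Tpsab1 5239 in MEF and 992 and 5536 for the Leydig pair, with neither called. The list's sum was 17860 in MEF, 18361 and 17234 for the iLC pair, and 37222 and 22309 for the Leydig pair. Apart from Tpsab1, the mast cell markers and their sum were, like Kit, higher on Leydig replicate 1 than on replicate 2. No marker of either list was at 0, and the part of these cells in the Kit readings was not tested. Kitl is known from Sertoli cells. Of 14 Sertoli markers, 3 (Clu, Aard and Cldn11) were called higher and 1 (Inhbb) lower in Leydig cells than in MEF. In iLC relative to Leydig cells 1 (Inhbb) was called higher and 3 (Clu, Aard and Cldn11) lower. Aard read 1314 in MEF and 50609 and 147767 for the Leydig pair. Cldn11 read 513 in MEF and 4818 and 2505 for the Leydig pair, and Inhbb 23540 in MEF and 1565 and 1368 for the Leydig pair. Their sum was 79214 in MEF, 105880 and 138692 for the iLC pair, and 439005 and 552136 for the Leydig pair, where Kitl was lowest; Clu alone gave 332720 and 369002 of the Leydig sums. Amh was dim throughout (6.75 to 229 over the 5 arrays), no marker was at 0, and the part of Sertoli RNA was not tested.

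Flt1, a VEGF receptor that also acts as a decoy in its soluble form, read 7702 in MEF, 3433 and 1888 for the iLC pair, and 277 and 347 for the Leydig pair. The groups lay in that descending order without overlap. Flt1 was called lower in Leydig cells than in MEF (-4.56 ± 0.48 SE, adjusted p = 0.00587) and higher in iLC than in Leydig cells (2.97 ± 0.39, adjusted p = 0.00695). Its difference between iLC and MEF, -1.59 ± 0.48, was not called (adjusted p = 0.205; 95% interval -2.76 to -0.42). Kdr, the main signalling receptor for VEGF-A, was the flattest of the 10 over the arrays, with a log2 range of 1.09. It read 2087 in MEF, 2802 and 3401 for the iLC pair, and 1709 and 1591 for the Leydig pair. Both iLC readings were the highest, yet no comparison called it. The differences were 0.56 between iLC and MEF (adjusted p = 0.539; 95% interval -0.36 to 1.48), 0.90 between iLC and Leydig cells (adjusted p = 0.126; 0.15 to 1.65) and -0.34 between Leydig cells and MEF (adjusted p = 0.708; -1.26 to 0.58). Without Leydig replicate 2 both Flt1 calls were lost, at -4.72 (adjusted p = 0.0608) against MEF and 3.13 (adjusted p = 0.0664) against iLC, and the latter also without replicate 1 (2.82, adjusted p = 0.0596). Of 14 endothelial markers, 1 was called higher (Cdh5) and 1 lower (Emcn) in Leydig cells than in MEF, and 1 higher (Esam) and 1 lower (Cdh5) in iLC than in Leydig cells. The list's sum was 22740 in MEF, 31116 and 35626 for the iLC pair, and 34624 and 26471 for the Leydig pair, with no marker at 0. Pecam1, a defining endothelial gene, read 1027 on the MEF array and 1143 to 1546 on the others. Emcn had the group order of Flt1, with 2066 in MEF, 457 and 474 for the iLC pair, and 396 and 403 for the Leydig pair. Cdh5 was highest on the Leydig arrays, with 771 in MEF, 1216 and 1145 for the iLC pair, and 10224 and 6400 for the Leydig pair. FLT1 is also known from macrophages. Of 14 macrophage markers, 7 were called lower and 0 higher in Leydig cells than in MEF, and 4 higher in iLC than in Leydig cells, with none called between iLC and MEF. Their sum had the same order of groups as Flt1, 213663 in MEF, 56531 and 118818 for the iLC pair, and 29706 and 29200 for the Leydig pair. Within iLC the order of the sum was opposite, as Flt1 was higher on replicate 1. C1qa, C1qb and C1qc gave 44571, 41769 and 29670 of the MEF sum. They and Cd68, Csf1r, Lyz1, Mrc1 and Tyrobp had the group order of Flt1 without overlap. Ptprc, Adgre1, Cd14, Cx3cr1, Fcgr1 and Aif1 did not. Aif1 was highest on the Leydig arrays (1982 and 3725), and Cx3cr1 lowest on the iLC arrays (146 and 387). No macrophage marker was at 0, and the part of these cells in the Flt1 readings was not tested.

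Of the PDGF ligands, Pdgfc was called in both comparisons with Leydig cells, Pdgfa and Pdgfb in that with iLC, and Pdgfd in none. Pdgfc, which encodes a ligand secreted in latent form, read 25751 in MEF, 18681 and 9858 for the iLC pair, and 1146 and 679 for the Leydig pair. The lowest fibroblast-derived reading was several times the higher Leydig reading. Pdgfc was called higher in iLC than in Leydig cells (3.92 ± 0.45 SE, adjusted p = 0.00424) and lower in Leydig cells than in MEF (-4.84 ± 0.55, adjusted p = 0.00722). Its difference between iLC and MEF was -0.92 ± 0.55 (adjusted p = 0.48; 95% interval -2.26 to 0.41). Pdgfa, the gene for the A chain, read 15494 in MEF, 11310 and 18592 for the iLC pair, and 2400 and 5337 for the Leydig pair. The MEF reading lay between the iLC readings, and both Leydig readings were below them. Pdgfa was called higher in iLC than in Leydig cells by a narrow margin (2.01 ± 0.49, adjusted p = 0.0497), a call lost with 1 in place of 16 as the added value (2.02, adjusted p = 0.0806) and with each array's low end subtracted (2.03, adjusted p = 0.0882). The differences were -2.11 ± 0.60 between Leydig cells and MEF (adjusted p = 0.101; 95% interval -3.55 to -0.66) and -0.10 ± 0.60 between iLC and MEF (adjusted p = 0.958; -1.54 to 1.35); the latter was 0.26 without iLC replicate 1 and -0.45 without replicate 2. The arrays measure transcripts, so PDGFAA protein added to the medium is not itself measured. Its effect on these transcripts was not tested.

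Pdgfb, the gene for the B chain, known from endothelium and platelets, read 1564 in MEF, 12450 and 5657 for the iLC pair, and 639 and 1095 for the Leydig pair. Both iLC readings were above all 3 others. The difference between iLC and Leydig cells was 3.30 ± 0.49 (SE, adjusted p = 0.0101). That between iLC and MEF was 2.41 ± 0.60, a 5.32-fold change on this scale, with an unadjusted interval clear of 0 (0.96 to 3.87), but it was not called over all genes (adjusted p = 0.144). It ran from 1.84 without iLC replicate 1 to 2.98 without iLC replicate 2. Between Leydig cells and MEF the difference was -0.89 (adjusted p = 0.497; 95% interval -2.35 to 0.57). Pdgfd, which encodes a latent ligand of PDGF receptor beta, read 2760 in MEF, 1709 and 2637 for the iLC pair, and 2305 and 1111 for the Leydig pair. Its iLC and Leydig readings overlapped, and no comparison called it: the differences were -0.38 between iLC and MEF (95% interval -1.73 to 0.98), 0.40 between iLC and Leydig cells (-0.70 to 1.51; -0.12 without Leydig replicate 2) and -0.78 between Leydig cells and MEF (-2.13 to 0.58). Without Leydig replicate 2 Pdgfc lost its calls between iLC and Leydig cells (3.55, adjusted p = 0.0563) and against MEF (-4.47, adjusted p = 0.0681). Without Leydig replicate 1 or 2 Pdgfb lost its call (2.92 and 3.68, adjusted p = 0.078 and 0.0678). The Pdgfa call was lost without any 1 of the 4 arrays (1.44 to 2.59, adjusted p up to 0.193). Of 6 platelet markers, which were read beside Pdgfb, 2 (Pf4 and Ppbp) were called higher and 1 lower (Itga2b) in iLC than in Leydig cells, and 0 between iLC and MEF. Their sum was 17376 in MEF, 24460 and 52857 for the iLC pair, and 3513 and 4682 for the Leydig pair. Among defining platelet genes Itga2b and Gp9 were dim on the iLC arrays (74.3 to 93.9 and 272 to 342), while Gp1bb read 1817 in MEF, 2214 and 2426 for the iLC pair, and 1167 and 929 for the Leydig pair, the same order of groups as Pdgfb, with no call. Pf4 read 11332 in MEF, 13438 and 26536 for the iLC pair, and 1069 and 2080 for the Leydig pair. Ppbp read 2955 in MEF, 8001 and 22975 for the iLC pair, and 390 and 322 for the Leydig pair. Both, and the list's sum, also had the order of groups of Pdgfb. The sum was higher on iLC replicate 2, where Pdgfb was lower, no marker was at 0, and the part of such cells was not tested.

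**Figure D3:**
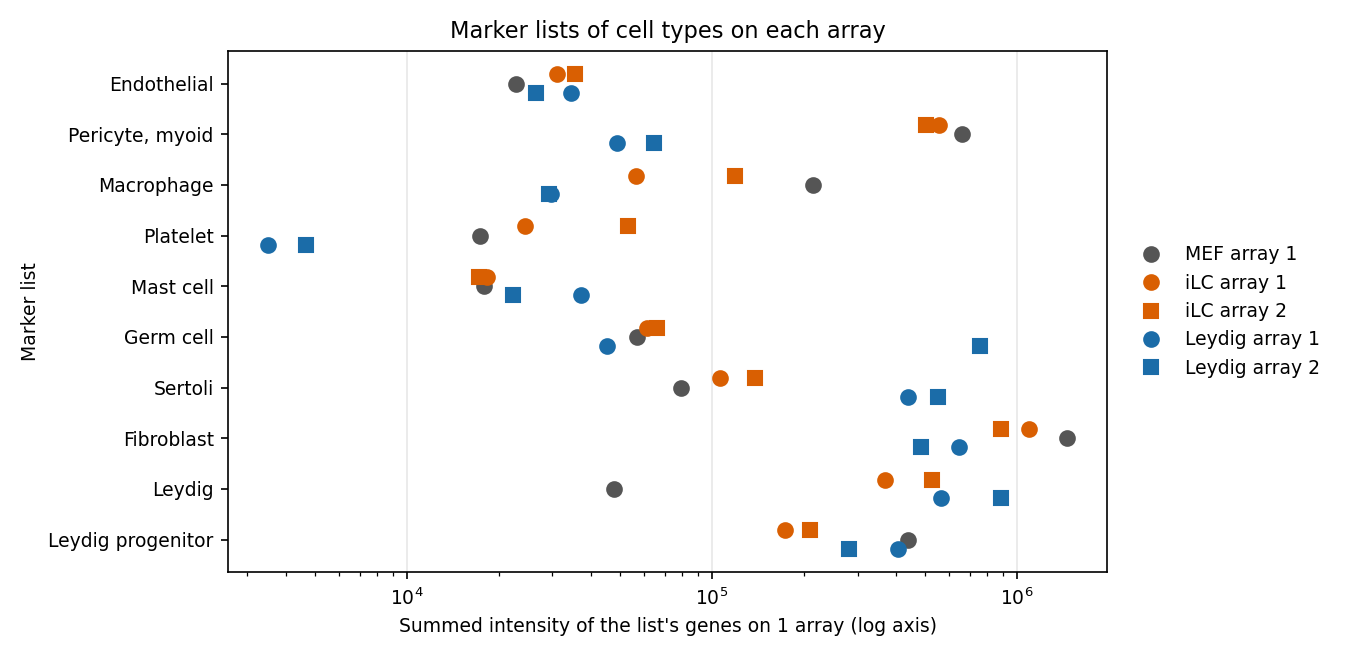
Summed intensity (log axis) of each fixed list of cell type markers on each of the 5 arrays, with circles for the first and squares for the second array of a group. Germ cell markers separate the Leydig arrays (45198 and 758695), and macrophage markers are highest on the MEF array (213663).

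The summed markers of pericytes and myoid cells had the same order of groups as Pdgfrb. Of 11 pericyte and myoid markers, 5 were called lower and 0 higher in Leydig cells than in MEF, and 5 higher in iLC than in Leydig cells. The 5 were the same genes in both comparisons, Acta2, Myh11, Des, Mcam and Tagln, contractile and pericyte genes that fibroblasts in culture also express. The list's sum was 657707 in MEF, 555924 and 504931 for the iLC pair, and 48848 and 64374 for the Leydig pair, and the pericyte gene Rgs5 read 587, then 770 and 1029, then 459 and 314. Acta2 alone gave 466436 of the MEF sum and 493313 and 439352 of the iLC sums. Myh11, Des, Mcam and Tagln had the order of the sum without overlap. Acta2, Cnn1, Rgs5, Notch3, Abcc9, Kcnj8 and Cspg4 did not. Cspg4 read 12077 in MEF, 4614 and 4212 for the iLC pair, and 6016 and 8473 for the Leydig pair. Of 13 fibroblast markers, 5 were called lower and 0 higher in Leydig cells than in MEF, and 5 higher and 1 lower in iLC than in Leydig cells, with sums of 1459450 in MEF, 1096750 and 888735 for the iLC pair, and 644832 and 483016 for the Leydig pair. No marker of these lists was at 0, and the part of contractile or fibroblast cells in the Pdgfrb readings was not tested. Of 10 measured progenitor markers of the Leydig lineage, Pdgfra among them, 4 were called higher and 2 lower in Leydig cells than in MEF, and 2 higher and 4 lower in iLC than in Leydig cells. The 4 were Pdgfra, Nr2f2, Tcf21 and Lifr in both comparisons, and the 2 were Nes and Thy1. Their sum was 438387 in MEF, 174173 and 209109 for the iLC pair, and 405785 and 281055 for the Leydig pair.

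Position and start-site sequence are given as a description. The choice of genes by symbol did not use them directly, but members of a receptor family can be neighbours, so position is not independent of that choice. In the RefSeq gene table (assembly GRCm38.p6, used for gene order alone) Pdgfra, Kit and Kdr follow each other on chromosome 5 with no other protein-coding gene between them. Pdgfra and Kit were higher in Leydig cells and their neighbour Kdr was not called. Of the genes around them, Gsx2 (-0.15), Chic2 (0.28), Tmem165 (-0.57) and Clock (0.16) were not called between Leydig cells and MEF. Lnx1, a ubiquitin ligase gene beyond Chic2, was higher in Leydig cells than in MEF by 4.29 (adjusted p = 0.00757) and lower in iLC than in Leydig cells (-3.99, adjusted p = 0.00282). Lnx1 was named after its values were seen. Pdgfrb and Csf1r, which encodes the macrophage growth factor receptor, are neighbours as well, and Csf1r, like Pdgfrb, was called lower in Leydig cells than in MEF (-2.67, adjusted p = 0.016). Csf1r was also called higher in iLC than in Leydig cells (2.29, adjusted p = 0.00942), where Pdgfrb was not. Hmgxb3, on the other side of Csf1r, was not called between Leydig cells and MEF (-0.42). Csf1r read 12039 in MEF, 8129 and 10525 for the iLC pair, and 1662 and 2126 for the Leydig pair; it is also a macrophage marker. Around Flt1, which was called lower in Leydig cells than in MEF, the related receptor gene Flt3 (0.15), Pan3 (0.17) and Pomp (0.15) were not called in that comparison.

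RefSeq start-site windows (build GRCm38.p6) were available for 8 of the 10 genes, and the 250 bases before the start were searched on both strands for 5 kinds of word. The words were TATAAA, the GC box GGGCGG, the GATA words AGATAA or AGATAG or TGATAA or TGATAG, the NR5A1 word CAAGGTCA and the cAMP response element TGACGTCA; no other motif was searched. Of 32841 windows in the table, 12.4% held TATAAA, 32.7% GGGCGG, 26.5% a GATA word, 1.33% CAAGGTCA and 1.55% TGACGTCA. The windows of the 2 genes highest in Leydig cells (Pdgfra and Kit) and of the 2 genes with the largest called falls against MEF there (Pdgfc and Flt1) are shown, 5′ to 3′ on the gene's strand, with any matched word in capitals. They are Pdgfra at chr5:75152001-75152250 (plus strand), Kit at chr5:75574737-75574986 (plus strand), Pdgfc at chr3:81036166-81036415 (plus strand) and Flt1 at chr5:147726012-147726261 (minus strand).
Pdgfra: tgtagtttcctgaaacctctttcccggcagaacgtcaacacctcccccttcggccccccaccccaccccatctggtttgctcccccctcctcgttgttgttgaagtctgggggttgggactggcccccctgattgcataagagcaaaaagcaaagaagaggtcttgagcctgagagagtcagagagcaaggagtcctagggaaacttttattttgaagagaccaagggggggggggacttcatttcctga
Kit: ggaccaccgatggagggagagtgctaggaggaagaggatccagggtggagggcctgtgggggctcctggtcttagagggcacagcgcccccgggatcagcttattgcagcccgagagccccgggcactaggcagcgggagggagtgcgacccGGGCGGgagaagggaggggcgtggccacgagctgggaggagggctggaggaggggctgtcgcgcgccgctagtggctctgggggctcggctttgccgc
Pdgfc: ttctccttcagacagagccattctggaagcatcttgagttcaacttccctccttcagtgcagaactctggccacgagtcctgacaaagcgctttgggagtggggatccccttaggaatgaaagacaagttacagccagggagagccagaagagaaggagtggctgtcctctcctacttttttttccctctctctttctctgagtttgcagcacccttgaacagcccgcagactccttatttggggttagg
Flt1: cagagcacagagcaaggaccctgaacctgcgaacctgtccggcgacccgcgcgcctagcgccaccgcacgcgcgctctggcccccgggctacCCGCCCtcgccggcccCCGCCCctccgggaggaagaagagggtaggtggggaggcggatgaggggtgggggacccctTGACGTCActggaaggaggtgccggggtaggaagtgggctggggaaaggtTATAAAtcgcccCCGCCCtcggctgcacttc
The Pdgfra and Pdgfc windows held none of these words. The Kit window held 1 GC box word, from base -98 to -93 before the start, and had 70.8% G and C against 54.4% for Pdgfra and a median of 52.4% over all windows. The Flt1 window held 3 GC box words, a TATAAA word from -31 to -26 and a TGACGTCA word from -81 to -74, with 70.4% G and C. Of the genes not shown, Pdgfd alone held a GATA word (AGATAA from -223 to -218), and none of the 8 held CAAGGTCA. These matches describe letters in a short window only.

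Other receptors and ligands of the same families were read from fixed lists. Of 7 related receptors, 0 were called between iLC and MEF, 1 higher (Csf1r) and 1 lower in iLC relative to Leydig cells, and 1 lower (Csf1r) in Leydig cells than in MEF. The lower gene was Nrp2, a co-receptor for VEGF-C, which read 34187 in MEF, 7311 and 8118 for the iLC pair, and 48042 and 34893 for the Leydig pair. Its iLC readings stood apart from all others (-2.41 against Leydig cells, adjusted p = 0.0075; -2.15 against MEF, adjusted p = 0.087). The call was lost without iLC replicate 1 (-2.33, adjusted p = 0.0526) and with the mean of its 2 probes (-1.25, adjusted p = 0.0577), so that the size given rests on the brighter probe. Of 10 related ligands, 2 were called higher and 2 lower in iLC than in Leydig cells, 1 higher and 2 lower in Leydig cells than in MEF, and 0 between iLC and MEF. Vegfd, a ligand known from lymphatic vessel growth, read 7942 in MEF, 6101 and 5785 for the iLC pair, and 49300 and 79585 for the Leydig pair (-3.39 between iLC and Leydig cells, adjusted p = 0.00323; 2.98 between Leydig cells and MEF, adjusted p = 0.0146). Vegfc, another VEGF ligand gene, went the other way, with 3.11 between iLC and Leydig cells (adjusted p = 0.00889) and -3.88 between Leydig cells and MEF (adjusted p = 0.0126). Vegfa, the ligand of FLT1 and KDR, read 24108 in MEF, 56295 and 81924 for the iLC pair, and 24235 and 11815 for the Leydig pair. Both iLC readings were above the rest, with a called difference from Leydig cells (2.00, adjusted p = 0.0387) and none from MEF (1.49, adjusted p = 0.272). Flt3l was lower in iLC than in Leydig cells (-1.99, adjusted p = 0.0354), and Pgf, a ligand of FLT1, was lower in Leydig cells than in MEF (-2.28, adjusted p = 0.0384). With any 1 of the 4 iLC or Leydig arrays left out, the Vegfa (1.49 to 2.52), Flt3l (-2.40 to -1.59) and Pgf (-2.56 to -2.00) calls were lost. Between iLC and Leydig cells the median difference was -0.04 for the receptors and -0.10 for the ligands, against -0.03 for all genes.

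Of 8 measured genes of PDGF processing and availability, 2 were called higher in iLC than in Leydig cells, 2 lower in Leydig cells than in MEF, and 0 between iLC and MEF. Plat, the tissue plasminogen activator that cleaves latent PDGF-CC, read 42101 in MEF, 82012 and 98077 for the iLC pair, and 5608 and 3148 for the Leydig pair. Both iLC readings were the highest and both Leydig readings the lowest. The difference between iLC and Leydig cells was 4.41 (adjusted p = 0.00197), and that between Leydig cells and MEF was -3.32 (adjusted p = 0.0133; -2.90 and adjusted p = 0.0708 without Leydig replicate 2). Plat and its substrate's gene Pdgfc were both lower on the Leydig arrays. Timp1, a metalloproteinase inhibitor, was higher in iLC than in Leydig cells (2.73, adjusted p = 0.0128), and Plaur, the urokinase receptor, was called lower in Leydig cells than in MEF by a narrow margin (-2.75, adjusted p = 0.0494). The Plaur call was lost without any 1 of the 4 arrays (-3.24 to -2.26) and under 5 other alternatives. Among these was the fit on the mean of each gene's probes (adjusted p = 0.0506). Plaur has 1 probe, and its difference stayed at -2.75 in that fit. The list's median difference between iLC and Leydig cells was 1.17, and between Leydig cells and MEF -0.92. Furin, a protease that cuts PDGF precursors, read 13250 in MEF, 13016 and 13806 for the iLC pair, and 11310 and 10319 for the Leydig pair.

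**Figure D4:**
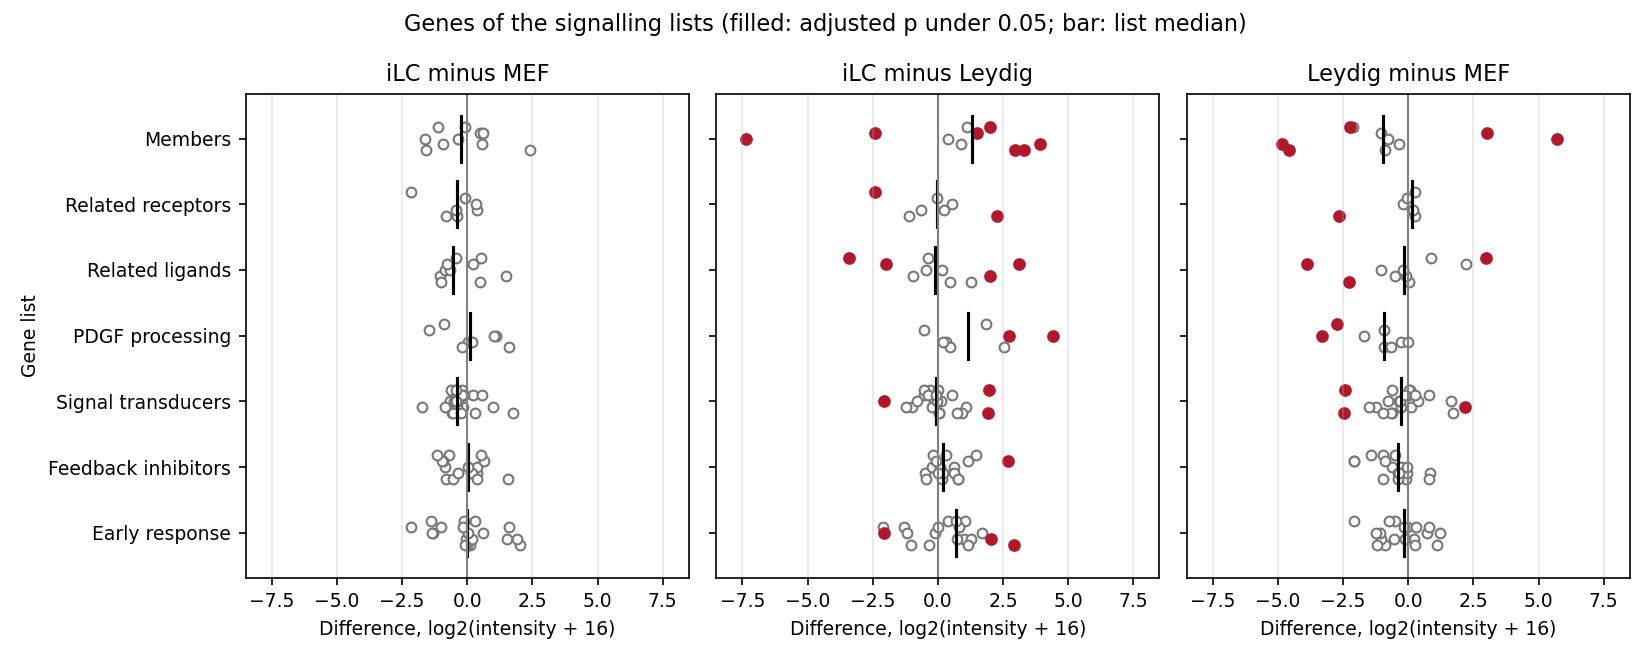
Differences of log2(intensity + 16) for the genes of 7 lists in the 3 comparisons, with 1 point per gene, filled where the adjusted p was under 0.05, and a bar at each list's median. No point is filled between iLC and MEF; between iLC and Leydig 7 of the 10 genes described here are filled.

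The genes of the shared signalling chain were called at shares on both sides of those of all genes, depending on the list and comparison. Of 23 measured signal transducers, 2 were called higher (Src and Pik3cb) and 1 lower (Stat5b) in iLC than in Leydig cells, or 13% against 11.4% of all genes. Between Leydig cells and MEF 2 were lower (Pik3cb and Src) and 1 higher (Stat5a), or 13% against 7.38% of all genes. Src, a kinase that binds activated PDGF receptors, differed by 1.98 between iLC and Leydig cells (adjusted p = 0.0138), Pik3cb, a catalytic subunit of PI3 kinase, by 1.93 (adjusted p = 0.0179), and Stat5b by -2.08 (adjusted p = 0.0174). Of 17 feedback inhibitors, 1 was called, the MAP kinase phosphatase gene Dusp5, at 2.71 between iLC and Leydig cells (adjusted p = 0.0101), or 5.88% of the list; between Leydig cells and MEF 0% was called. Of 19 early response genes, 2 were called higher (Atf3 and Nr4a1) and 1 lower (Egr1) in iLC than in Leydig cells, or 15.8% against 11.4% of all genes. In either other comparison 0 were called. Just outside the threshold between Leydig cells and MEF, the early response gene Klf6 (-2.07, adjusted p = 0.0632) and Dusp5 (-2.08, adjusted p = 0.0611) were called under 6 of 15 alternatives each. Egr1, a serum and growth factor response gene, read 78673 in MEF, 32735 and 30060 for the iLC pair, and 141001 and 119332 for the Leydig pair. Its iLC readings were the lowest of the 5, though the difference from MEF was not called (-1.33, adjusted p = 0.183). Nr4a1 read 15191 in MEF, 54015 and 61722 for the iLC pair, and 9894 and 19688 for the Leydig pair. None of the 3 lists had a call between iLC and MEF, where the largest differences were those of Stat3 (1.74) and Rasa1 (-1.74), Socs1 (1.56) and Spry1 (-1.15), and Egr2 (-2.17) and Atf3 (2.02). List medians between iLC and MEF were -0.41 for the transducers, 0.04 for the inhibitors and -0.02 for the early response genes, against -0.11 for all genes. Of the 26 calls of list genes and Lnx1 made here, 22 were lost without at least 1 of the 4 iLC and Leydig arrays. The 4 that held were those of Vegfd and Plat between iLC and Leydig cells and both of Lnx1. Of the 26, 7 (those of Nrp2, Vegfa, Flt3l, Nr4a1, Pgf, Stat5a and Plaur) were lost in some alternative that kept every array, and 3 uncalled differences (those of Klf6 and Dusp5, and Nrp2 between iLC and MEF) gained a call in some alternative.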

How the data were processed

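Transcripts were measured on 5 single-colour mouse arrays of 26423 probes each. The deposited values are linear intensities. The sources used here do not give the authors' background correction, normalization or software, and no detection calls were used. Samples were grouped by title. Probes were named through the platform annotation (21876 with 1 symbol, 0 with several, 4547 with none), and the probe with the highest mean stood for the 2424 genes with several.

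Values below 0 were set to 0, 16 was added and log2 taken. limma 3.58.1 in R 4.3.3 (lmFit, eBayes) was fitted over all 5 arrays with 1 mean per group, 2 residual and 4.19 prior degrees of freedom, two-sided, with Benjamini-Hochberg adjustment. The code was tested on simulated data. Alternatives changed the added value, dim-gene filter, floor, scaling, low end, probe rule, prior, samples and replicates. The members, gene lists and tests were chosen with earlier results of these data known. Named list genes were up to 4 called genes per list and comparison with the largest differences, or otherwise the largest 2; Furin, Lnx1, its neighbours and single markers were chosen after their values were seen; like genes had the smallest root mean square difference over the 5 arrays. The iLC and Leydig replicate numbers pair nothing that the labels name, and deviations of same-numbered arrays correlated at 0.0552 across genes. Sequences and gene order came from RefSeq tables (GRCm38.p6).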

Additional observations from a re-analysis of the deposited data

How the results depend on the processing

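The direction of all 10 genes held in every comparison and every alternative, except for Pdgfa between iLC and MEF (0.26 without iLC replicate 1, -0.45 without replicate 2) and Pdgfd between iLC and Leydig cells (-0.12 without Leydig replicate 2, up to 0.92). Without 1 array, the called differences between iLC and Leydig cells ran from -2.89 to -1.93 for Pdgfra, 1.44 to 2.59 for Pdgfa, 2.73 to 3.87 for Pdgfb, 3.46 to 4.38 for Pdgfc, 1.41 to 1.63 for Kitl and 2.55 to 3.40 for Flt1, and calls were lost as given beside each gene (without Leydig replicate 2, all but that of Kit); between Leydig cells and MEF they ran from 2.53 to 3.50 for Pdgfra, -2.45 to -2.00 for Pdgfrb, -5.21 to -4.47 for Pdgfc, 5.06 to 6.39 for Kit and -4.72 to -4.41 for Flt1, and without Leydig replicate 2 each of these 5 calls was lost. Pdgfa lost its call between iLC and Leydig cells with an added value of 1 (2.02) and with the low end subtracted (2.03), and gained one between Leydig cells and MEF with median centring (-2.14). Pdgfrb lost its call with only Leydig cells and MEF fitted (-2.23), which leaves fewer samples. The cause of the other changes was not tested.

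Counts over all genes moved as well. Between iLC and MEF 54 genes were called higher and 55 lower, against 7 and 2 with an added value of 1, 125 and 162 with 64, 108 and 123 with dim genes left out, 143 and 185 with values floored at the 20th percentile, 157 and 258 with median centring, 163 and 200 with quantile normalization, 6 and 0 with the low end subtracted, 116 and 133 with a prior variance trend, 0 and 0 with only those groups, and 0 to 0 in each direction without 1 array (limma; 2137 to 2881 at an unadjusted p under 0.05). Without 1 array, 336 to 562 genes were called higher and 368 to 761 lower between iLC and Leydig cells, and 77 to 430 and 72 to 533 between Leydig cells and MEF; 430 were higher with only the latter groups. The median difference of all genes shifted with the scaling, from -0.11 to 0.05 (quantile) and 0.12 (low end) between iLC and MEF, and from -0.10 to -0.01 and 0.04 between Leydig cells and MEF. With the replicate block between iLC and Leydig cells, 1485 genes were called higher and 1958 lower, and no call among the 10 genes changed. The block rests on replicate numbers that pair nothing the labels name, so the unchanged calls add no support. Dim probes such as Kit in iLC have no known background, which limits the size of their differences.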

Other observations

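Genes whose profile over the 5 arrays lay closest to that of a called gene, by root mean square difference of log2 values each centred on the gene's own mean, are given as a description. For Pdgfra they were Exoc3l (0.19), Dpep1 (0.19) and Naalad2 (0.21). For Kit they were Tcf21 (0.56), Ggt5 (0.66) and Itih5 (0.68); Tcf21, a mesenchymal transcription factor, read 506 in MEF, 61.9 and 168 for the iLC pair, and 49873 and 35286 for the Leydig pair. For Pdgfrb they were Itga7 (0.12), Fam118a (0.14) and Zfp599 (0.14), and for Flt1 Tll1 (0.11), Tnmd (0.17) and Myh11 (0.20). For Pdgfb they were Gdf10 (0.20), a growth factor of the TGF-beta family, Has1 (0.23), a hyaluronan synthase, and Nrip3 (0.32). Gdf10 read 2373 in MEF, 18274 and 9946 for the iLC pair, and 1346 and 1589 for the Leydig pair. For Pdgfc they were Mrc2 (0.24), Hoxa11 (0.27) and Ccn3 (0.29), for Pdgfa Acot7 (0.16), Tmc7 (0.17) and Ets2 (0.18), and for Kitl Pcgf3 (0.08), Rab7 (0.09) and H2aw (0.09).

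The ratio of the PDGF receptor probes is given per array as a description. Set to 0 on the MEF array, the log2 ratio of the Pdgfra to the Pdgfrb probe was 1.97 and 1.48 for the iLC pair and 5.95 and 4.53 for the Leydig pair. The Leydig values lay above the iLC values; the ratio is set against a single MEF array and was not tested, and neither gene was called between iLC and MEF.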
